A study of Mus musculus with 4 samples.

Results

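Specc1, Sgpp2, Pcgf5 and Il1rap are 4 protein-coding genes among the 31053 gene rows measured in single nuclei of the developing mouse superior colliculus. They were chosen by name, because earlier results of these same data showed them higher at postnatal day 21 (P21) than at P8. That rise is therefore given below as a description and carries no test. All 4 were found in the count matrix, each in 1 row, and all 4 had transcripts at every stage. The superior colliculus is the layered midbrain structure that receives input from the retina and helps to direct gaze and orienting movements. Nuclei were isolated from microdissected tissue of C57BL/6J mice at embryonic day 19 (E19), P4, P8 and P21, and each stage is 1 library of the 10x Genomics 3' v3 assay. The tissue of each library was pooled from several animals, whose number and sex the labels do not state. The label of the earliest stage also carries another embryonic day in brackets, and E19 is used throughout. The stages shared strain and tissue and differed in age, and no treatment or genotype was compared. The libraries also differed in sex make-up. Excitatory nuclei with Xist and no Y-linked UMI numbered 1, 373, 270 and 380 at E19, P4, P8 and P21, and those with a Y-linked and no Xist UMI 1125, 651, 476 and 211, so sex cannot be told apart from age in values that involve E19. With 1 library per stage there is no replicate check, so no p-value is given. Every interval is a 95% interval for counting error only, and age cannot be told apart from any other difference between the libraries.

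The genes belong to 4 unrelated pathways. Sgpp2 encodes sphingosine-1-phosphate phosphatase 2, an enzyme of the endoplasmic reticulum that removes the phosphate from sphingosine-1-phosphate, a lipid that signals through its own receptors and is also an intermediate of sphingolipid turnover. Specc1 encodes cytospin-B, a coiled-coil protein with a calponin-homology domain, a fold found in many proteins of the actin cytoskeleton. Pcgf5 encodes a RING-finger subunit of a variant Polycomb repressive complex 1, the group of chromatin complexes that place ubiquitin on histone H2A, and its closest relative is Pcgf3. Il1rap encodes the interleukin-1 receptor accessory protein, the shared co-receptor of several interleukin-1 family receptors. A neuronal form of Il1rap is also known as a synaptic adhesion protein that binds the receptor phosphatase Ptprd.

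The 4 libraries held 2585, 2386, 2504 and 2249 annotated nuclei at E19, P4, P8 and P21, 9724 in all, with a median of 6828 to 11745 transcripts (unique molecular identifiers, UMIs) per nucleus that was lowest at E19 and highest at P21. Cell classes and subtypes are those of the deposited annotation, and a subtype is used where it has at least 20 nuclei in a library. Between P8 and P21, 11 excitatory and 12 inhibitory neuron subtypes could be followed. The labels were checked against marker genes. Levels are given as CPM, the UMIs of a gene per 1000000 UMIs of all genes in the same nuclei. Slc17a6 and Slc17a7 summed to between 179 and 286 CPM in excitatory neurons and to at most 46.3 in inhibitory neurons, and Gad1, Gad2 and Slc32a1 summed to between 680.3 and 950.3 in inhibitory neurons and to at most 58.6 in excitatory ones. Markers of oligodendrocytes moved with age in the neuron classes. The summed level of Mbp, Mog, Mobp and Mag went from 42.6 to 107 CPM in excitatory and from 49.7 to 112 in inhibitory neurons between P8 and P21, with 4 of the 4 genes higher at P21 in each class, against 13949 in the oligodendrocyte lineage itself at P21. The same sum went from 24.2 to 186 in astrocytes and from 27.0 to 163 in leptomeningeal cells. Most of the sum in neurons at P8 was Mbp, with 38.5 CPM in excitatory and 43.6 in inhibitory neurons. Mobp went from 0.0758 to 15.8 and from 0 to 17.2 in these classes, and Mag from 1.90 to 13.7 and from 2.08 to 13.1. Astrocyte markers went the other way in neurons. The sum of Aqp4, Gja1, Aldh1l1 and Slc1a2 fell from 92.7 to 57.2 CPM in excitatory and from 152 to 72.9 in inhibitory neurons between P8 and P21. In 9 cases a barcode sequence occurred in more than 1 library.

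Between P8 and P21 the members fell into unequal patterns in neurons. Sgpp2, Specc1 and Pcgf5 stayed low from E19 to P8 and were 4.43-fold to 19.3-fold higher at P21 in both neuron classes. Il1rap was 1.77-fold higher in excitatory and 1.28-fold higher in inhibitory neurons over the same interval, and in inhibitory neurons most of its rise had come earlier. On the scale used for all differences, the log2 ratio of CPM with 5 added to both values, 3 of the 4 members passed 1 in excitatory neurons and the same 3 in inhibitory neurons. Among all genes with at least 20 CPM at the higher stage, 2.15% passed that ratio upward in excitatory and 2.62% in inhibitory neurons. Nothing is read from the members' count against these shares, since the members were chosen on this contrast. Of 7117 genes ranked in excitatory neurons, Sgpp2 was number 3 from the top, Specc1 number 4, Pcgf5 number 9 and Il1rap number 295. Of 7328 genes in inhibitory neurons the ranks were 3 for Sgpp2, 9 for Pcgf5, 20 for Specc1 and 1649 for Il1rap.

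**Figure D1:**
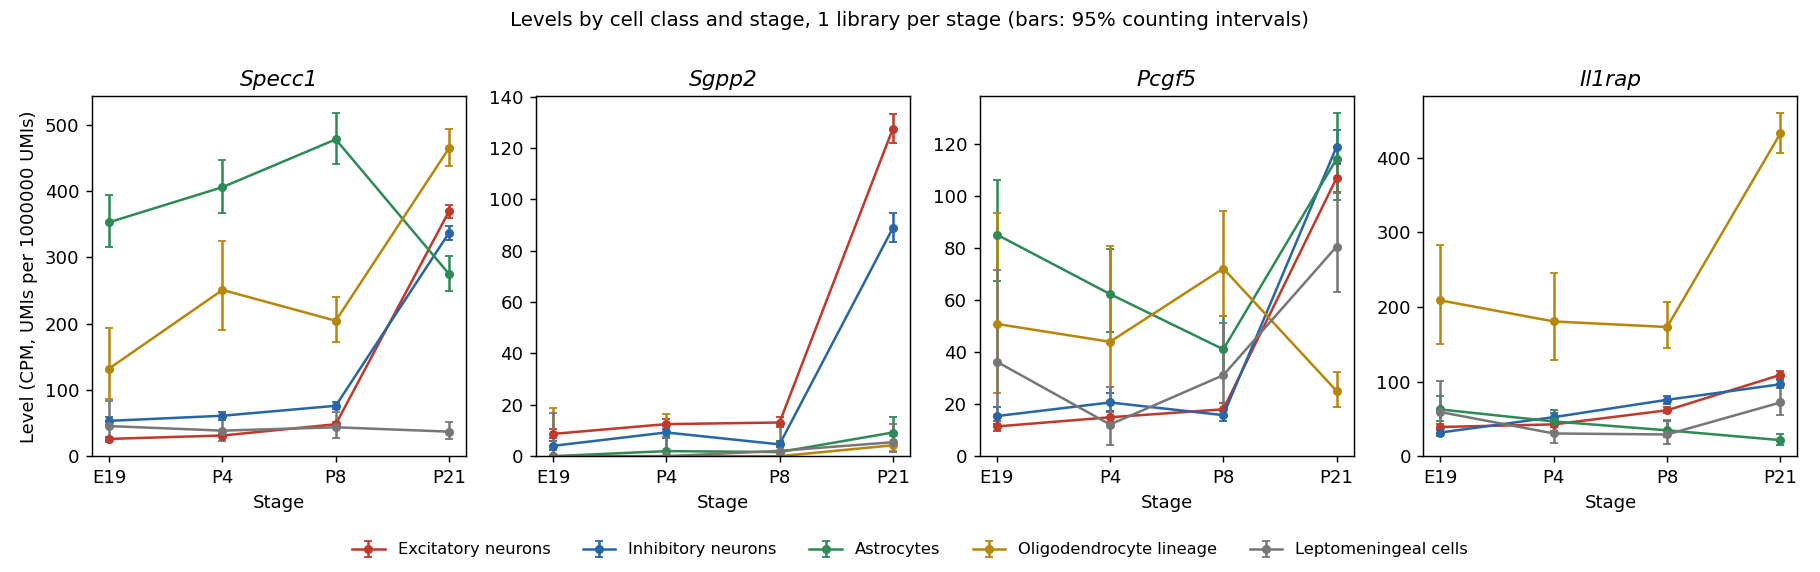
Level of each gene, in CPM, in 5 cell classes at E19, P4, P8 and P21. Points are sums over the nuclei of 1 library and bars are 95% counting intervals. Sgpp2 is near 0 outside the neuron classes, Specc1 falls in astrocytes where it rises in neurons, and Pcgf5 falls in the oligodendrocyte lineage.

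At P21 Sgpp2 was far higher in the 2 neuron classes than in astrocytes, the oligodendrocyte lineage or leptomeningeal cells. In excitatory neurons its level was 8.67, 12.5, 13.1 and 127 CPM at E19, P4, P8 and P21, the last resting on 1862 UMIs. In inhibitory neurons it was 4.03, 9.24, 4.60 and 88.8. The P21 value stood alone in both classes, and no counting interval of an earlier stage reached it. The P8 to P21 ratio was 9.72-fold (8.31 to 11.4) in excitatory and 19.3-fold (14.6 to 26.1) in inhibitory neurons. The inhibitory value at P8 was itself lower than at P4, by 0.57 on the log2 scale (0.25 to 0.88), which enlarges the last ratio.

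Sgpp2 lies on the plus strand of chr1:78310345-78420289 (mm10, GENCODE M21 annotation). The 250 bases before its RefSeq start site (GRCm38.p6, chr1:78310096-78310345) are shown because the gene changed most of the 4 in inhibitory neurons. Capitals mark every match, on either strand, to 7 searched motifs: the TATA box as TATAAA, the CCAAT box by its own letters, the GC box as GGGCGG, the cAMP-response half-site as TGACG, the AP-1 site as TGANTCA, the E-box as CACGTG and the nuclear-receptor half-site as AGGTCA. No 2 of them overlapped in the windows printed here.
Sgpp2: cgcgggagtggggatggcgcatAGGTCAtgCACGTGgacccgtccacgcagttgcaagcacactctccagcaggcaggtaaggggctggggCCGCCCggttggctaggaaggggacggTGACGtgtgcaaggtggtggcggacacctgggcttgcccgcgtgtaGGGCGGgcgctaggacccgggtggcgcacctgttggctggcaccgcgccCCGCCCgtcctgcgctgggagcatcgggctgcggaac
This window held 3 GC boxes and 1 match each to the cAMP-response half-site, the E-box and the nuclear-receptor half-site. Of 32851 windows of the same length before RefSeq start sites, 32.7% held a GC box, 17.8% the cAMP-response half-site, 6.02% the E-box and 14.02% the nuclear-receptor half-site. A match describes the letters and is not evidence that a factor binds.

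In the other 3 of these classes, Sgpp2 was at or close to the floor. The oligodendrocyte lineage had no Sgpp2 UMI at E19, P4 or P8, where 3 counts would be 15.3, 13.2 and 4.09 CPM, and 4.25 at P21. Astrocytes went from 0 at E19 to 9.23 at P21 and leptomeningeal cells, the fibroblast-like cells of the brain's coverings, from 0 to 5.45. Sgpp2 rose from P8 to P21 in astrocytes too, from 1.61 to 9.23 CPM, a log2 ratio of 1.11 (0.22 to 1.56). Both astrocyte values lie below the 20 CPM that a gene needed to be ranked. At P21 all neurons together stood at 110.6. Some smaller non-neuronal classes were higher. Epithelial cells had 59.1 CPM at P4, from 8 UMIs of 1 nucleus, and none at the other stages, and microglia had 27.0 at P21, from 3 UMIs. Endothelial cells had 0, 30.6, 51.5 and 163 CPM. The endothelial values rest on 0, 7, 10 and 12 UMIs in 13, 22, 15 and 12 nuclei, and at P21 a single nucleus gave 41.7% of them.

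Thinned to 2300 UMIs per nucleus, so that depth was equal, 3.11% (2.06 to 4.50) of excitatory nuclei held a Sgpp2 UMI at P8 and 24.6% (21.4 to 28.0) at P21. In inhibitory nuclei the share went from 1.19% (0.64 to 2.03) to 12.3% (10.0 to 14.9). Without thinning the P21 shares were 73.6% and 47.0%, at median depths of 19601 and 14009.5 UMIs. The background at P21 was 0 of 306 oligodendrocyte-lineage nuclei after thinning, with an interval of 0 to 1.20%, and 3.27% before it, at a median of 7253 UMIs.

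All 11 excitatory and all 12 inhibitory subtypes were higher in Sgpp2 at P21 than at P8, each past a log2 ratio of 1. The share of all genes past that ratio was computed for the class sums and not for single subtypes, whose counts are smaller. The subtypes differed widely in level at P21. EN10 had 184 CPM (149 to 224), IN2 166 (147 to 186), IN8 163 (134 to 197), EN9 160.5 (135 to 190) and EN2 158 (131 to 189), and the intervals of these 5 overlapped. At the other end IN3 had 8.53 CPM (4.97 to 13.7), from 17 UMIs in 126 nuclei. The next lowest subtype, IN7, had 51.5 (37.4 to 69.2), which does not overlap with IN3. IN3 stayed low throughout, with 0, 3.16, 1.13 and 8.53 over the 4 stages, and its P21 level was close to the 9.23 of astrocytes. The highest level among inhibitory subtypes at P21 was 19.4 times that of IN3, while the highest among excitatory subtypes was 3.00 times the lowest, EN12.

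The step before P8 differed between subtypes and the class sum. From P4 to P8 the excitatory sum changed by 0.05 on the log2 scale (-0.17 to 0.27). Of 11 excitatory subtypes, 9 had a UMI in either library, and these 9 were all higher at P8, 6 of them past 1. EN12 went from 0, where 3 counts would be 5.74 CPM, to 11.1. EN13 went from 0, where 3 counts would be 16.2, to 17.4, with an interval of the log2 ratio that included 0. EN4 went from 0 to 7.69. In the excitatory class sum, 0.361% of the 7210 genes with at least 20 CPM at the higher stage passed a log2 ratio of 1 upward over this step. The subtypes were held to no such minimum, and EN12, EN13 and EN4 lay below it, so the share is not a like comparison. EN10 went from 7.97 to 33.4 and EN3 from 11.1 to 29.9. The subtype EN7 held 191 nuclei at P4 and 1 at P8, and at P4 it carried 51.6% of the class's Sgpp2 UMIs at 34.6 CPM, against 7.43 in the other excitatory nuclei. Without EN7 the P4 to P8 log2 ratio of the class was 0.54.

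Specc1 rose in neurons from below the astrocyte level at P8 to above it at P21. Excitatory neurons had 26.1, 31.2, 48.2 and 369.8 CPM at E19, P4, P8 and P21, and inhibitory neurons 53.3, 61.1, 76.1 and 337. In excitatory neurons each stage was above the one before, and the step to P21 was by far the largest, at 7.67-fold (7.06 to 8.34). In inhibitory neurons the same step was 4.43-fold (4.11 to 4.78). Up to P8, inhibitory neurons stood above excitatory ones, and at P21 the order was turned, with intervals of 360.0 to 379.8 and 327 to 348.

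The gene spans chr11:61956763-62223013 on the plus strand and has 2 RefSeq start sites, which the counts cannot tell apart. Their upstream windows are set side by side because they differ in composition.
Specc1, upstream site: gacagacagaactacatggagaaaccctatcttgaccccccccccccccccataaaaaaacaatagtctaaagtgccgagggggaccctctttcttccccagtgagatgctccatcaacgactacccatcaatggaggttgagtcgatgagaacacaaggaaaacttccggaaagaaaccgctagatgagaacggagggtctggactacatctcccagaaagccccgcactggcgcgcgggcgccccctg
Specc1, downstream site: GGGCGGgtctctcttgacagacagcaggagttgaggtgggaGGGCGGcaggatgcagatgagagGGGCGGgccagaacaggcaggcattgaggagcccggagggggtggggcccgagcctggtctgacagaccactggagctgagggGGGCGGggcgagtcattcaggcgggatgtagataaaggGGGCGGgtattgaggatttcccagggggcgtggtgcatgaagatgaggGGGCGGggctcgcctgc
The upstream window (GRCm38.p6, chr11:61956513-61956762) held none of the 7 motifs and was 54.8% G and C. The downstream window (chr11:62076774-62077023) held 6 GC boxes and was 66.4% G and C, against a median of 52.4% over all windows.

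Astrocytes ran the other way. Their Specc1 level was 353, 406, 478 and 275 CPM, and from P8 to P21 it was 0.575 times as high (0.507 to 0.651). Protoplasmic astrocytes went from 529 to 288, while fibrous astrocytes, from 241 to 194, had an interval of the log2 ratio that included 0. At P8 the astrocyte level was thus far above both neuron classes, and at P21 it was below both. Leptomeningeal cells stayed between 37.1 and 45.5 throughout. Microglia were high at every stage, between 413 and 558, in 13 to 33 nuclei per library. Over all non-neuronal nuclei together the level lay between 279.6 and 310.6 at every stage, while over all nuclei it went from 86.7 at P8 to 348 at P21.

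In the oligodendrocyte lineage Specc1 was 132, 251, 204 and 465 CPM. Precursors had 119 at P8 and 144 at P21, with overlapping intervals, committed oligodendrocytes went from 333 to 815, and myelinating oligodendrocytes, present in number only at P21, had 418. At P8 to P21, 11.1% of all genes passed a log2 ratio of 1 upward in this lineage and 20% downward, and Specc1 was among the former at 1.17 (0.92 to 1.42). Because Specc1 is high in oligodendrocytes at P21, it was set against the oligodendrocyte markers in the same nuclei. Per UMI of the 4 oligodendrocyte markers there were 0.0333 Specc1 UMIs in the lineage at P21 and 3.45 in excitatory and 3.00 in inhibitory neurons.

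The Specc1 rise reached every neuron subtype. All 11 excitatory subtypes and 11 of 12 inhibitory subtypes passed a log2 ratio of 1, from 2.22 in EN2 to 4.37 in EN9 among the former and from 1.56 in IN11 to 3.86 in IN7 among the latter. The exception was IN12, which was the highest subtype at all 4 stages, with 367, 251, 416 and 666 CPM, and rose by 0.67 (0.35 to 1.00). IN12 had 22 nuclei at P21 and 44 at P8. The lowest subtype at P21 was EN12 with 158 (136 to 181), set apart from the next lowest, IN4, with 269.7 (240.3 to 302). Between these, the intervals of all neighbours in the order overlapped, except for IN12 against EN10. Among inhibitory subtypes the highest, IN12, was 22.2 times the lowest at P8 and 2.47 times at P21. The next highest at P8, IN11, had 93.5 CPM, and the lowest, IN7, had 18.7 from 17 UMIs. Among excitatory subtypes the highest was 5.22 times the lowest at P8 and 3.15 times at P21. After thinning, the share of nuclei with a Specc1 UMI went from 9.46% (7.59 to 11.6) to 58.2% (54.4 to 61.9) in excitatory and from 13.7% (11.7 to 15.9) to 51.2% (47.5 to 54.9) in inhibitory neurons, while in leptomeningeal cells, the lowest of the 5 classes at P21, it was 11.4% and 10.8%. Unthinned, the shares at P21 were 97.8% in excitatory neurons at a median of 19601 UMIs and 19.4% in leptomeningeal cells at 6228.

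**Figure D2:**
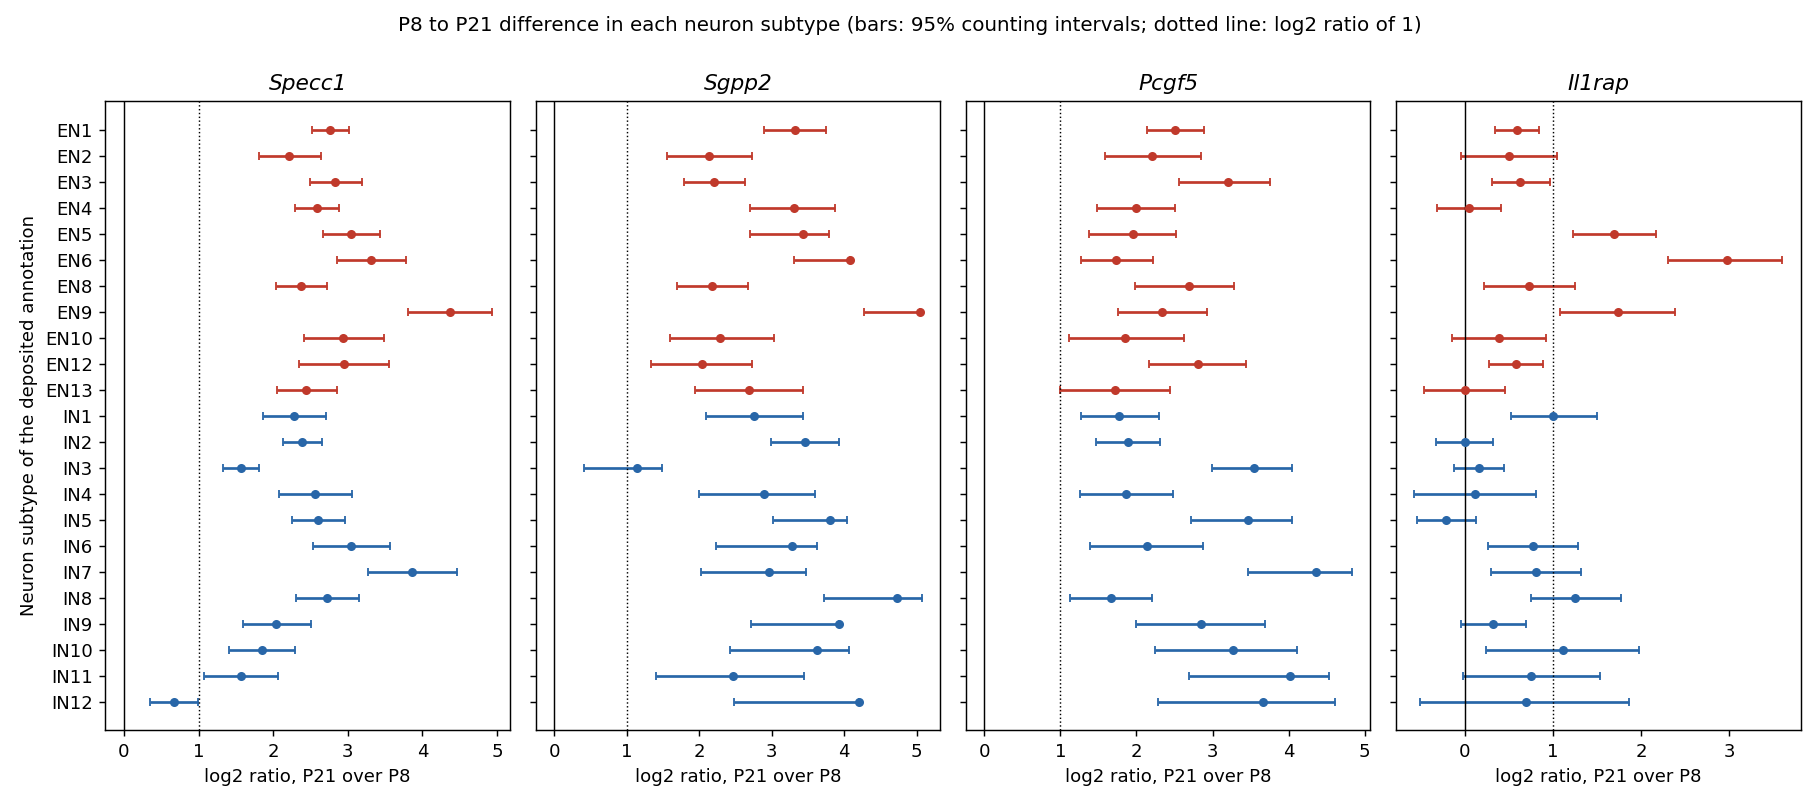
P8 to P21 log2 ratio (5 CPM added) of each gene in each neuron subtype with at least 20 nuclei at both stages. Points are single-library ratios, bars 95% counting intervals, red excitatory and blue inhibitory. Sgpp2 and Pcgf5 pass 1 in all 23 subtypes, Specc1 in all except IN12, and Il1rap in 5.

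Pcgf5 had its largest step in neurons between P8 and P21. Its level was 11.4, 15.0, 18.0 and 107 CPM in excitatory neurons and 15.4, 20.7, 15.8 and 119 in inhibitory neurons. From E19 to P4 it rose by 0.28 on the log2 scale (0.05 to 0.51) in excitatory and by 0.33 (0.02 to 0.64) in inhibitory neurons. From P4 to P8 the log2 ratio of the class sum was -0.30 (-0.57 to -0.04) in inhibitory neurons, which enlarges the last ratio there. Most inhibitory subtypes did not share this fall. Of 12, 8 were higher at P8, the median log2 ratio was 0.31, and every subtype interval included 0. IN1, at 29.9 CPM at P4 and 40.2 at P8, held 205 nuclei at P4 and 52 at P8. In excitatory neurons the step from P4 to P8 was 0.21, with an interval that included 0. In excitatory neurons P21 stood 5.93-fold above P8 (5.17 to 6.83). In inhibitory neurons the ratio was 7.54-fold (6.44 to 8.88). Every one of the 11 excitatory and 12 inhibitory subtypes passed a log2 ratio of 1. At P21 inhibitory subtypes were more alike than for any other member, as a ratio of highest to lowest. They lay between 87.2 CPM in IN6 and 152 in IN8, where at P8 they had run from 2.13 in IN11 to 44.7 in IN8. In CPM the range was wider at P21 than at P8. The P8 values of IN11 and IN7 rest on 1 and 2 UMIs, with an interval of 0.05 to 11.8 CPM for IN11. IN7 went from 2.21 to 143 and IN8 from 44.7 to 152, so subtypes that started far apart ended with overlapping intervals. In the order of the 23 subtypes at P21 all neighbours overlapped. EN8 was lowest, at 61.9 (49.3 to 76.8).

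Pcgf5 lies on chr19:36348309-36460970, plus strand, with 3 RefSeq start sites. The most upstream window (GRCm38.p6, chr19:36348079-36348328) is shown.
Pcgf5: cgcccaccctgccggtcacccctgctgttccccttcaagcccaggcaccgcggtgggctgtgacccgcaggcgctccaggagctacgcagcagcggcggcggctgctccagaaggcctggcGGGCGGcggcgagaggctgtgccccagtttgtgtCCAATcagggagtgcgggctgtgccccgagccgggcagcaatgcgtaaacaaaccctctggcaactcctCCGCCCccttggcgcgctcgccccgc
It held 2 GC boxes and 1 CCAAT box, a motif found in 33.8% of all windows. The middle window held none of the 7 motifs and the most downstream window held 1 GC box.

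Outside neurons Pcgf5 moved in both directions. Astrocytes fell and recovered, with 85.3, 62.4, 41.1 and 114 CPM, and passed a log2 ratio of 1 from P8 to P21, as 4.94% of genes did in that class, where 7.36% passed downward. Leptomeningeal cells went from 31.2 to 80.7 (4.02% of genes passed upward there and 8.5% downward). The oligodendrocyte lineage fell from 72.2 to 25.1, a log2 ratio of -1.36 (-1.85 to -0.86). Within that lineage at P21, precursors had 56.8, committed oligodendrocytes 53.5 and myelinating oligodendrocytes 10.2 (5.84 to 16.6), and the precursors had 62.4 at P8. The class held 187 myelinating nuclei at P21 against 1 at P8. Its low level there also means that Pcgf5 gave 0.00180 UMIs per oligodendrocyte marker UMI in the lineage, against 1.00 in excitatory and 1.06 in inhibitory neurons. After thinning, 3.92% of excitatory nuclei held a Pcgf5 UMI at P8 and 22.1% at P21, and 3.58% and 21.4% of inhibitory nuclei. In the oligodendrocyte lineage the share was 12.6% and 7.84%. Unthinned P21 shares were 72.9% and 73.1% of excitatory and inhibitory nuclei and 13.7% of the lineage.

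Il1rap rose in both neuron classes, by less at the last step than the other members. Excitatory neurons had 39.1, 42.6, 61.5 and 109 CPM, and inhibitory neurons 31.7, 52.3, 75.5 and 96.3. In excitatory neurons the log2 step was 0.11 from E19 to P4, with an interval that included 0, then 0.48 and 0.78. Without the subtype EN7, nearly absent at P8, the step from P4 to P8 was 0.28. In inhibitory neurons it was 0.64 (0.41 to 0.87), 0.49 (0.32 to 0.66) and 0.33 (0.21 to 0.46), so the last step had the lowest value of the 3. From E19 to P21 the ratio was 2.79-fold in excitatory and 3.04-fold in inhibitory neurons.

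The gene lies on chr16:26581704-26730117, plus strand, with 1 RefSeq start site. Its upstream window (GRCm38.p6, chr16:26581455-26581704) held 4 GC boxes and 1 CCAAT box and was 74.4% G and C.
Il1rap: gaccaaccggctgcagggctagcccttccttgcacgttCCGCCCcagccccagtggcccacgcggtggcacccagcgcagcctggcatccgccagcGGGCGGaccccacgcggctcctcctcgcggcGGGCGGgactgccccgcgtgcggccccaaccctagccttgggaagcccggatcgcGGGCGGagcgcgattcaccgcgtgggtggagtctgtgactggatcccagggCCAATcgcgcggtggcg

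For Il1rap the neuron subtypes did not move together. Of 11 excitatory subtypes 10 were higher at P21 than at P8, but only EN6, EN9 and EN5 passed a log2 ratio of 1, at 2.97, 1.74 and 1.69. The interval of the log2 ratio lay above 0 in 7 of the 11 excitatory and in 5 of the 12 inhibitory subtypes. EN6 went from 9.54 to 109 CPM and EN5 from 29.6 to 107, while EN13 had 120.4 and 120.0 and EN4 had 84.6 and 87.4. Of 12 inhibitory subtypes 10 were higher, IN8 (55.3 to 139) and IN10 (22.9 to 55.2) passed 1, and IN5 (128 to 110.2) and IN2 (75.1 to 74.9) were lower, with intervals of the log2 ratio that included 0. IN9 was highest at P8, with 195, and at P21, with 245 (203 to 294), and overlapped at P21 with EN12, at 195 (171 to 222). IN4 was lowest at P21, with 31.7 (22.2 to 43.9), and the highest inhibitory subtype was 7.73 times as high.

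Of the 5 classes, the oligodendrocyte lineage had the highest Il1rap level at every stage, with 209, 180.5, 173 and 432 CPM. Dividing cells, a smaller class, had 182 at P8. Precursors did not change from P8 to P21 beyond counting error, at 203 and 214, committed oligodendrocytes went from 85.7 to 329, and myelinating oligodendrocytes had 506 (471 to 542) at P21. With the subtypes of the lineage weighted alike the P8 to P21 log2 ratio was 0.89, against 1.30 for the sum. Astrocytes declined over the 4 stages, from 62.6 through 46.5 and 34.7 to 21.5, although no single step before the last had an interval off 0. Leptomeningeal cells went from 29.1 to 71.9. Per oligodendrocyte marker UMI at P21 there were 0.0310 Il1rap UMIs in the lineage and 1.02 in excitatory and 0.857 in inhibitory neurons. After thinning, the share of nuclei with an Il1rap UMI went from 12.8% (10.7 to 15.2) to 20.97% (17.97 to 24.2) in excitatory, from 13.5% (11.5 to 15.7) to 18.1% (15.4 to 21.1) in inhibitory neurons, and from 35.0% to 53.9% in the oligodendrocyte lineage. In astrocytes, the lowest of the 5 classes at P21, it was 6.87% and 4.88%. Unthinned P21 shares were 66.7%, 50.5%, 83.3% and 10.1% of these 4 classes.

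**Figure D3:**
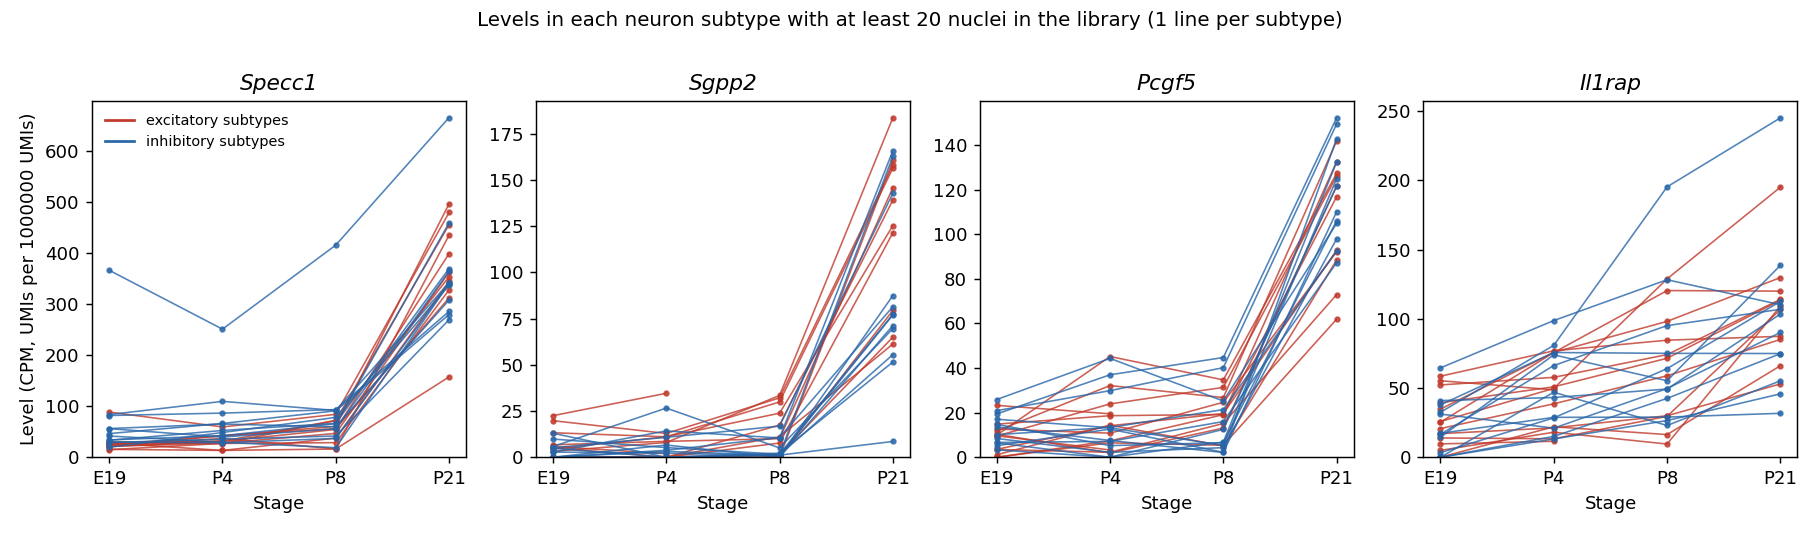
Level of each gene, in CPM, in every neuron subtype with at least 20 nuclei in the library, at E19, P4, P8 and P21, with 1 line per subtype, red excitatory and blue inhibitory. IN12 is the high line of Specc1, IN3 the low line of Sgpp2 at P21, and the Il1rap lines spread before P21.

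The closest relatives of Specc1, Sgpp2 and Pcgf5 had P8 to P21 log2 ratios below 1 in both neuron classes, where these 3 members passed 1. Since the members were chosen for this rise and the relatives were not, the contrast is only a description. Specc1l, the paralog of Specc1, was 97.9 CPM at P8 and 107 at P21 in excitatory and 99.9 and 102 in inhibitory neurons. Sgpp1, the other sphingosine-1-phosphate phosphatase, went from 12.4 to 20.1 in excitatory neurons, a log2 ratio of 0.53, and from 14.7 to 18.3 in inhibitory neurons. Pcgf3, the nearest relative of Pcgf5, ran downward over all stages, from 66.9 through 59.3 and 49.1 to 43.5 in excitatory and from 77.2 through 64.3 and 58.1 to 47.7 in inhibitory neurons. Il1rapl1, the paralog of Il1rap and a synaptic adhesion protein itself, went from 2636 to 2921 in excitatory and from 1917 to 2544 in inhibitory neurons, and its log2 ratio of 0.41 in the latter was above the 0.33 of Il1rap. Ptprd, the adhesion partner of Il1rap, was 6604 and 6670 in excitatory and 4594 and 4069 in inhibitory neurons. In the oligodendrocyte lineage, where Il1rap was highest at P21, Ptprd rose from 1037 to 5642. Il1r1, the signalling receptor that Il1rap assists, was at most 2.46 CPM in either neuron class at any stage.

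Few genes of the same families passed a log2 ratio of 1 from P8 to P21, a count to be read beside the 2.15% of genes higher and 3.2% lower in excitatory and the 2.62% and 3.28% in inhibitory neurons. Of 10 calponin-homology domain genes tested, Ehbp1l1 was lower in excitatory neurons, from 32.7 to 5.89, and Mical2, an actin-oxidising enzyme, was higher in inhibitory neurons, from 26.5 to 95.5. Of 20 sphingolipid genes Asah2, a neutral ceramidase, was higher in both classes, from 7.28 to 21.6 and from 7.85 to 27.9. Ceramide synthases Cers5 and Cers6 had log2 ratios of -0.70 and -0.52 in excitatory and -0.74 and -0.66 in inhibitory neurons, and did not pass. Of 34 Polycomb genes in excitatory neurons only Pcgf2 passed, lower at 19.4 than at 45.1, and of 36 in inhibitory neurons none did. Cbx7 had the highest value of that list, at 0.94 and 0.93, and Auts2, a subunit that joins Pcgf5 complexes, had -0.74 and -0.87. None of 10 interleukin-1 family genes passed in either class, and 4 of the list's 34 genes were not matched in the matrix. The median log2 ratios of the 4 lists lay between -0.02 and 0.14, against 0.02 and 0.04 over all genes tested in the 2 classes.

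**Figure D4:**
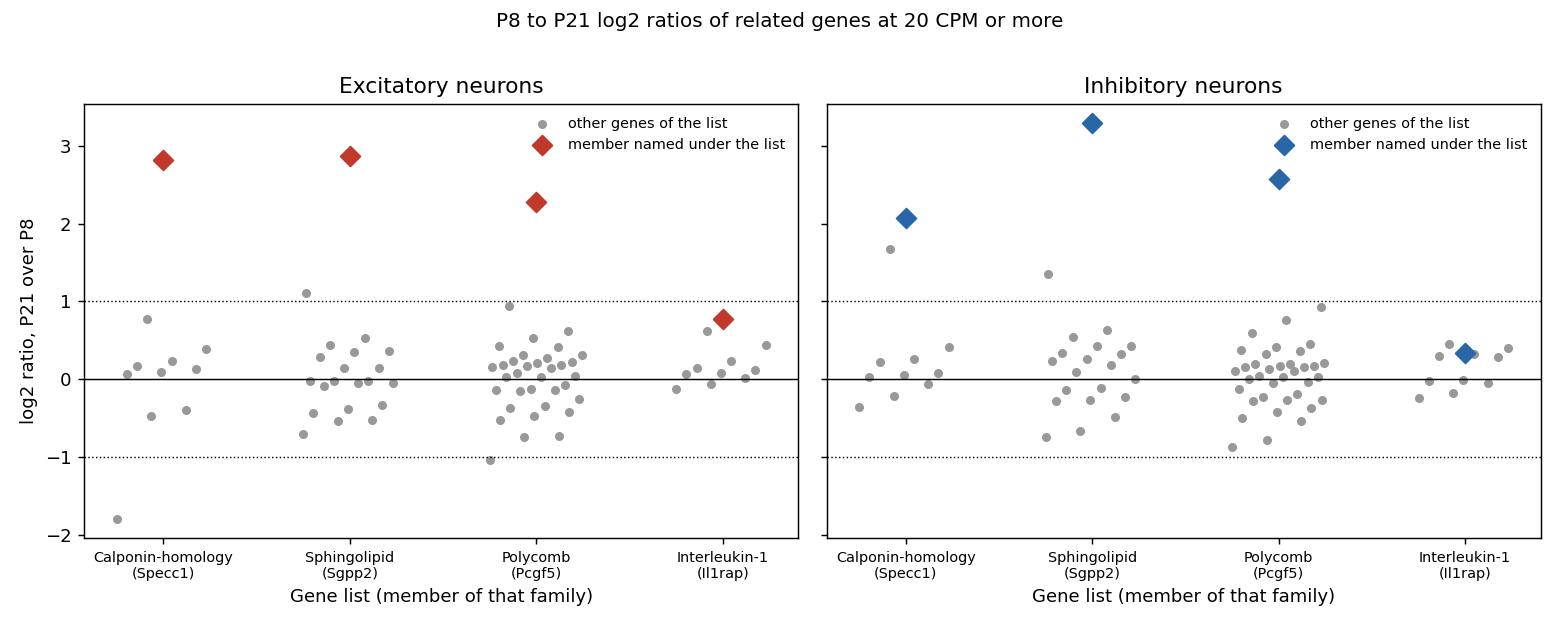
P8 to P21 log2 ratio (vertical axis, 5 CPM added) of each member (diamond) and of the other genes of its family or pathway with at least 20 CPM at the higher stage (grey points), in excitatory and inhibitory neurons. Dotted lines mark ratios of 1 and -1. Sgpp2, Specc1 and Pcgf5 lie above all genes of their lists, and Il1rap lies close to the genes of its list. The members were chosen for this rise and the lists were not, so nothing is read from their place above the lists.

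Across 124 sums of subtype and stage, the gene most like Specc1 was Ago3, with a Pearson r of 0.73 of the log2 levels, followed by Pcgf5 (0.69), Irf2 (0.68) and BC030499 (0.68). For Pcgf5 the order was BC030499 (0.70), Specc1 (0.69), Naaladl2 (0.68) and Gprc5b (0.67). Sgpp2 was most like Gm13629 (0.86), Coro6 (0.85), Gls2 (0.79) and Upp2 (0.79), and none of the other members was among its 4. Il1rap was most like Pcmtd2 (0.60), Gal3st1 (0.58), Ell2 (0.56) and Fam102a (0.55). Over sums of at least 50 nuclei, none of the 4 genes listed for Pcgf5 was again among its 4, and 1 was for Specc1, 3 for Sgpp2 and 2 for Il1rap. These values are descriptions over 10218 genes, and the sums share libraries, depth and stage. Within the P21 library alone, over 23 neuron subtypes, Specc1 and Pcgf5 had an r of 0.03, and Specc1 and Sgpp2 0.44 with a Spearman rho of 0.62. For Specc1 and Pcgf5 this was a weaker likeness than over all sums. At E19, P4 and P8 Specc1 and Sgpp2 had an r of -0.33, 0.19 and 0.01.

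The rise was also measured in nuclei split by sex-linked transcripts, since the libraries pool animals. Among nuclei with Xist and no Y-linked UMI, Sgpp2 went from 10.7 to 137 CPM in excitatory neurons, and among nuclei with a Y-linked and no Xist UMI from 12.7 to 110.4. The corresponding values were 43.0 and 369.6, and 51.9 and 346, for Specc1. They were 18.5 and 107, and 17.4 and 101, for Pcgf5, and 62.9 and 108, and 61.1 and 109, for Il1rap. The direction was the same in both kinds of nuclei for these 4 genes, in 270 and 476 nuclei at P8 and 380 and 211 at P21. Both kinds are parts of the class sums in which the members were known to rise. The shared direction is therefore a description and no separate check of the rise, and an effect of sex was not tested.

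Genes of the matrix that overlap the members on the opposite strand stayed low or changed less. Farsb, which overlaps Sgpp2, had 62.3 CPM at P8 and 79.3 at P21 in excitatory neurons, and Gm28410, also in Sgpp2, had 0.152 and 1.57. F530104D19Rik in Pcgf5 and Gm20319 in Il1rap had at most 0.812 at any stage in either class. Overlapping genes on the same strand, Gm37884 in Sgpp2 and Gm47773 and Gm9042 in Pcgf5, were not in the matrix, so they have no level here. The same holds on the opposite strand for Gm12274, the only gene overlapping Specc1, and for Gm23170 in Pcgf5. The labels do not say whether the counting used the strand. How far reads of overlapping genes were counted for the members was not tested.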

How the data were processed

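The authors deposited 1 matrix of raw UMI counts per gene and nucleus and 1 table of nuclei with stage, class, subtype, total UMIs and percent of mitochondrial UMIs. Per the submitters' processing notes, reads were processed with Cell Ranger 3.0.2 on mm10, and per the labels' protocols a pre-mRNA reference was used, so intronic reads count. The filters and tools behind the annotation, and any removal of doublets, are not given in the sources used here, and no doublet caller was run. In the deposited percent column no nucleus exceeded 5% mitochondrial UMIs. All 9724 deposited totals equal the matrix sums. The other 9 per-nucleus columns were not used.

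Counts were summed per library and class or subtype (at least 50 nuclei per class and 20 per subtype in a comparison) and divided by all UMIs of the sum and multiplied by 1000000 (CPM), with exact Poisson intervals for levels, exact Clopper-Pearson intervals for shares and exact binomial intervals for ratios, all at 95%. They cover counting error only. Log2 ratios add 5 CPM to both values. No nucleus had fewer than 2355 UMIs, so thinning to 2300 kept all. The log2 ratio and its interval were tested on simulated data before use. Python 3.11.15, numpy 2.4.6, pandas 2.3.3, scipy 1.17.1 and matplotlib 3.10.9 were used. Promoter windows are RefSeq's, positions and overlaps GENCODE M21's. The members and gene lists were chosen with earlier results of these data known. 1 gene of the oligodendrocyte marker list is not reported here and was left out of the summed level, which is lower without it. Named genes are the members, their closest relatives and Ptprd, the 3 largest rises and falls of each list in each neuron class (examples are given), and the 4 genes most correlated with each member over 124 sums, among genes reaching 50 CPM. Il1r1 was added after its values were seen.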

Additional observations from a re-analysis of the deposited data

Results flagged for a closer look

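In 3 cases a gene moved from P8 to P21 in the opposite direction to both neuron classes, with counting intervals that exclude 0 on each side. The difference between classes was not tested, because each stage has 1 library. Specc1 had a log2 ratio of -0.79 (-0.96 to -0.61) in astrocytes, against 2.82 in excitatory and 2.08 in inhibitory neurons. Of 7908 genes ranked from the highest in astrocytes it was number 6975, and the median of these genes was -0.11. Pcgf5 had -1.36 in the oligodendrocyte lineage, against 2.28 and 2.58 in neurons. In that lineage 20% of all genes passed a log2 ratio of 1 downward, and it held 187 myelinating nuclei at P21 against 1 at P8. Within precursors the ratio was -0.13 (-0.98 to 0.70), an interval that includes 0, and so does that of committed oligodendrocytes, at -0.84. Il1rap had -0.58 (-1.15 to -0.01) in astrocytes, against 0.78 and 0.33, and the astrocyte value rests on 43 UMIs at P8 and 35 at P21. In the same ranking of 7908 genes in astrocytes Il1rap was number 6416.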

How the results depend on the processing

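No paired analysis was possible because each stage is 1 library. The P8 to P21 log2 ratio of each member in each neuron class was recomputed under 9 alternatives. Of 72 values none were reversed, 51 lay within the counting interval of the main value and 21 outside it. Alternatives that change only the pseudocount cannot reverse a ratio, and all 9 draw on the same counts. A pseudocount of 20 CPM gave 2.51 and 1.89 for Specc1, 2.15 and 2.15 for Sgpp2 and 1.74 and 1.96 for Pcgf5 in excitatory and inhibitory neurons, and one of 1 gave 3.19 and 4.00 for Sgpp2 and 2.50 and 2.84 for Pcgf5. Thinning to 2300 UMIs gave 3.02 and 2.24 for Specc1, 2.80 for Sgpp2 and 2.30 for Pcgf5 in inhibitory, and 0.64 for Il1rap in excitatory neurons. With subtypes weighted alike Specc1 had 1.91 and Il1rap 0.49 in inhibitory neurons. Among nuclei with Xist and no Y-linked UMI, Specc1 had 2.96 and 2.19 and Sgpp2 3.18 in excitatory neurons, and among those with a Y-linked and no Xist UMI Specc1 had 2.62 in excitatory neurons. Setting subtype shares to those of P8, weighting nuclei alike and median-of-ratios scaling gave values within the interval. The counts of list genes past the fold are small and move by 1 or 2. Without a filter on low values the calponin-homology counts were 2 and 3 and the sphingolipid counts 2 and 2. At a minimum of 50 CPM they were 0 for calponin-homology in excitatory, 0 and 0 for sphingolipid and 0 for Polycomb in excitatory neurons. A pseudocount of 20 gave 0 and 0 for sphingolipid and 0 for Polycomb genes in excitatory neurons, and one of 1 gave 2 and 1 for Polycomb. Of the 4 genes most like each member, sums of at least 50 nuclei kept 1 for Specc1, 3 for Sgpp2, 0 for Pcgf5 and 2 for Il1rap. Chosen after seeing the data, leaving out EN7 moved the P4 to P8 log2 ratio in excitatory neurons from 0.05 to 0.54 for Sgpp2 and from 0.48 to 0.28 for Il1rap, and weighting subtypes alike gave 1.06 for Sgpp2. The causes were not tested. Depth limits the Sgpp2 ratios of the neuron subtypes with no UMI at P4 or P8.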

Other observations

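Smaller classes, with 10 to 40 nuclei per library, are given as values at each stage. In dividing cells Il1rap had 33.0, 146, 182 and 166 CPM at E19, P4, P8 and P21, from 7, 19, 42 and 10 UMIs. Specc1 had 335, 454, 199.7 and 116 in the same cells, and Pcgf5 stayed between 75.4 and 115. In epithelial cells Il1rap went from no UMI in 13 nuclei at E19 through 44.3 and 62.4 to 134.6 (94.8 to 186) at P21. Of the 8 Sgpp2 UMIs in epithelial cells at P4, all came from 1 nucleus.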
